A study of Mus musculus with 14 samples.

Results

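The protein tyrosine phosphatase genes were followed in mouse spleen cells split into a fraction in which follicular dendritic cells (FDC), which display antigen to B cells, had been concentrated and a fraction from which they had been removed. Members were all probe sets with a single gene symbol beginning with Ptpn and a digit or with Ptpr and a letter. This gave 78 probe sets of 36 genes, out of 15965 genes named on the arrays. Of the 36 genes, 18 encode receptor-type phosphatases and 17 non-receptor phosphatases. The remaining gene, Ptprcap, was taken in by its name only: it encodes a membrane protein associated with CD45 and is not a phosphatase, so it was counted apart.

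The 14 arrays belonged to 3 array sets with different probe sets, named A, B and C after the labels. On sets A and C, 2 depleted samples (numbered 1 and 2) stood against 3 enriched ones (1 to 3), and on set B the same depleted samples stood against enriched samples 2 and 3. The labels describe primary mouse splenocytes and give no genotype, strain, age, treatment or isolation method, and do not say whether each sample was a different animal. The tests therefore set differences against the scatter of these samples alone, part or all of which may be technical.

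Protein tyrosine phosphatases remove phosphate from tyrosine residues and so oppose tyrosine kinases, although some activate Src family kinases by removing an inhibitory phosphate. Receptor types span the membrane and often carry adhesion-like outer parts. Non-receptor types sit in the cytoplasm and are directed by SH2, FERM, PDZ or proline-rich parts. In the spleen, CD45 (Ptprc) is carried by nearly all leukocytes and SHP-1 (Ptpn6) by blood cells in general, whereas VE-PTP (Ptprb) is known from vascular endothelium.

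The sequences of 5 promoters are shown. At the brightest probe set their genes hold the largest changes of either direction among members with a promoter in the table used. The change of Ptprm is uncertain in size, as described below. The sequences are the 150 bases upstream of the most upstream RefSeq start (GRCm38.p6), 5′ to 3′ on the strand of the gene. The table held a promoter for 30 of the 36 genes and none for Ptprb, Ptprd, Ptprv, Ptpn2, Ptpn12 and Ptprcap. Capitals mark matches on either strand to any of 4 motifs. The GC box was searched as GGGCGG. For the CAAT box the letters were CCAAT. The TATA box was searched as TATAAA. A sequence of the kind bound by ETS factors, called the ETS motif here, was searched as AGGAAG. The first 3 genes were lower in the enriched fraction and the last 2 were higher.
Ptprc, chr1:138175306-138175455, minus strand: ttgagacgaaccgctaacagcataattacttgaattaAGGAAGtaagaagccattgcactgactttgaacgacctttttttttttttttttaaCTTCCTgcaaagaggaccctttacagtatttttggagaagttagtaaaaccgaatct
Ptpn22, chr3:103859645-103859794, plus strand: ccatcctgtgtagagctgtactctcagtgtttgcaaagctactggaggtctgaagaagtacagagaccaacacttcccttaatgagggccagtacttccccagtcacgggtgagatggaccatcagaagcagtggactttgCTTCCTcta
Ptpn6, chr6:124738710-124738859, minus strand: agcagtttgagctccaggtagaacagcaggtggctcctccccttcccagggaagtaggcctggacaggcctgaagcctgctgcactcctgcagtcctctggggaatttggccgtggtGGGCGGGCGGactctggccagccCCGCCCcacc
Ptprm, chr17:67354460-67354609, minus strand: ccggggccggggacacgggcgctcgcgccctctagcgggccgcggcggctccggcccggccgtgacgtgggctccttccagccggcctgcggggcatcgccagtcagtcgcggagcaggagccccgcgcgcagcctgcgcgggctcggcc
Ptprg, chr14:11553403-11553552, plus strand: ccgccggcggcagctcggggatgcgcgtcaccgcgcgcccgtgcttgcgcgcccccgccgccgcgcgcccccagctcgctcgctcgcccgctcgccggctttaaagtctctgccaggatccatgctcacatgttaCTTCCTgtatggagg

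These letters differed from gene to gene within either group. Of the 32851 promoter windows of this length in the table, 19.7% held the ETS motif, 28.6% the GC box, 24.5% the CAAT box and 7.6% the TATA box. These windows cover every listed start, so 1 gene can have several, whereas each member was searched at 1 start only. Ptpn14, whose probe sets gave opposite calls, was left out of the counts that follow. The ETS motif lay in 3 of the 5 promoters searched of members that fell (Ptprc, Ptpn22 and Ptpn7) and in 1 of the 9 of members that rose (Ptprg). The GC box lay in 3 of the 5 and 4 of the 9, the CAAT box in 1 of each group (Ptpn18 and Ptpn13) and the TATA box in 0. The Ptprm window held none of the 4 motifs. A match is a description of the letters in this window and shows no bound factor.

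Both classes held members that rose and members that fell in the enriched fraction. A gene was called when its brightest probe set had an adjusted p below 0.05 (limma, Benjamini-Hochberg over all probe sets tested on the array set). Of the 18 receptor genes, all of which had a tested probe set, 6 rose, 1 fell and 11 did not pass. Of the 17 non-receptor genes, 12 were tested, of which 4 rose, 5 fell and 3 did not pass. One of these 5 is Ptpn14, which had calls in opposite directions, and with plain probe sets only (a setting chosen after seeing the data) 5 non-receptor genes rose and 3 fell. Over all 12267 genes tested, 19.2% rose and 14.4% fell (33.7% in either direction), against 33.3% and 5.56% of the tested receptor genes and 33.3% and 41.7% of the tested non-receptor genes. The medians were close to each other, with log2 fold changes of 0.01 for receptor genes, -0.04 for non-receptor genes and 0.02 for all genes. The median size of change, regardless of sign, was 0.15, 0.31 and 0.13. Whether the classes differed from each other or from other genes was not tested, and the classes hold few genes. Of the 15 member probe sets that rose, 6 met the filter (a value over the 40th percentile of its array on 2 or more arrays) through enriched arrays only, and such a probe set had to be higher there. They are both probe sets of Ptprm, the dimmer pair of Ptprb, that of Ptprg on set A and that of Ptpn13. Their depleted values were not shown to lie above background, so their fold changes are uncertain in size and their calls are given as values, not as support.

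The direction of small changes depended on the scale. Of the calls over all probe sets of set A, 56.3% were rises on the deposited scale, 41.5% after quantile normalization and 42.7% after scaling to the median array. On set C the share was 52.1% on the deposited scale, 47.6% after quantile normalization and 43.2% after scaling to the median array. Under either other scaling, 5 receptor genes rose and 2 fell, and 3 non-receptor genes rose and 5 fell.

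**Figure D1:**
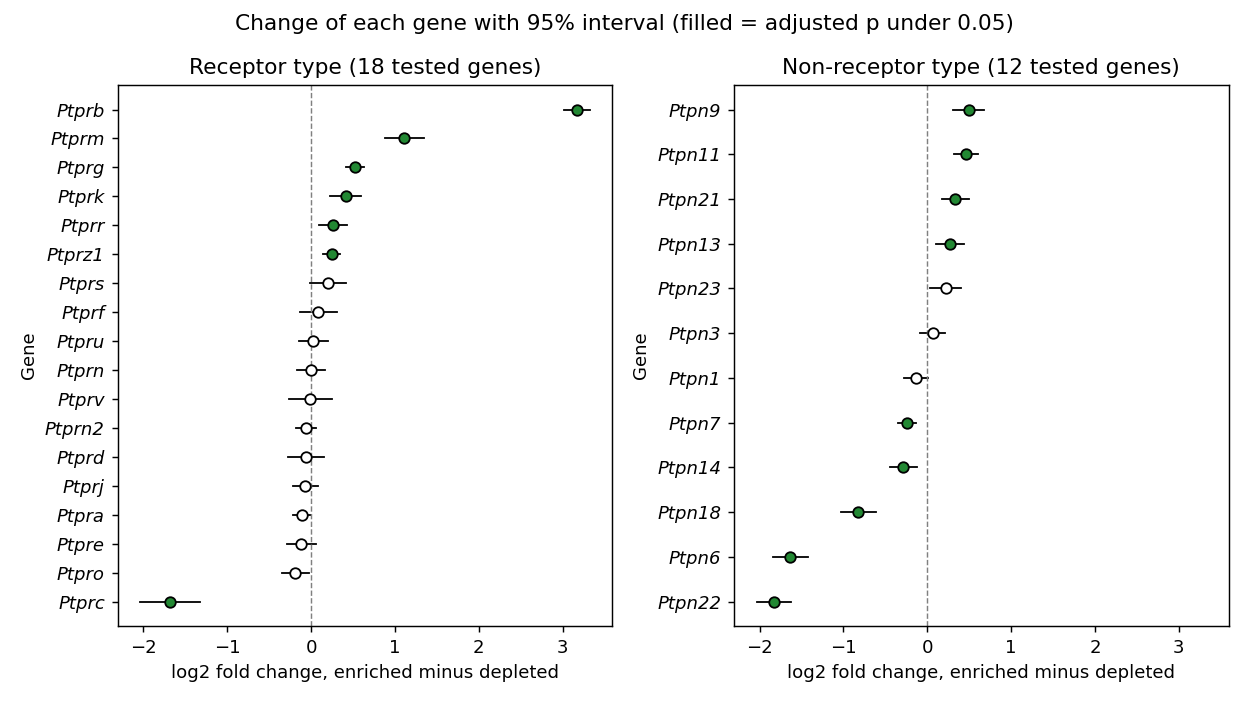
Log2 fold change of the enriched over the depleted arrays (horizontal axis) for each tested receptor-type (left) and non-receptor gene (right), at its brightest probe set, with its 95% interval from the limma fit; filled points had an adjusted p below 0.05. Ptprb at 3.17 stands apart on the right, and Ptprc at -1.68, Ptpn6 at -1.63 and Ptpn22 at -1.83 stand apart on the left.

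Among the receptor types, Ptprb changed most. Its product removes phosphate from the angiopoietin receptor Tie2 and from VE-cadherin junctions of endothelial cells. At its brightest probe set, on set B, the intensity was 268.9 and 255.2 on the depleted and 2896 and 3127 on the enriched arrays. The groups lay far apart, with means of 262.0 ± 9.63 (SD, n = 2) and 3011 ± 163 (SD, n = 2), a log2 fold change of 3.17 (SE 0.07, adjusted p = 1.24e-09), or 9.01-fold on the scale with the pseudocount and 11.5-fold as a plain ratio of means. A second probe set on set B read 88.6 and 89.9 against 768.5 and 712.2, a log2 fold change of 2.27 (adjusted p = 4.52e-09). On set A, Ptprb read 92.7 and 79.3 on the depleted arrays and 1237, 1693 and 1344 on the enriched ones, a log2 fold change of 3.11 (adjusted p = 5.26e-07). Both of these dimmer probe sets met the filter through enriched arrays only, whereas the brightest was over it on all 4 arrays. Enriched sample 2 was the highest at 2 of them and enriched sample 3 at the brightest.

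Ptprm, a phosphatase that binds its own kind on neighbouring cells, was called as a rise, with both of its tested probe sets over the filter on enriched arrays only. Its brighter probe set read 105.2 and 116.5 on the depleted and 290.7, 364.1 and 379.0 on the enriched arrays of set A. The log2 fold change was 1.11 (SE 0.10, adjusted p = 4.53e-05), and the ratio of means was 3.11. The other Ptprm probe set, at 77.4 and 77.8 against 265.2, 326.4 and 335.8, gave a log2 fold change of 1.26 (adjusted p = 1.37e-05). The depleted values lay below the 40th percentile of their arrays (176.1 and 179.9).

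Ptprg, whose outer part resembles a carbonic anhydrase and binds contactins, rose on set C, where its probe set was over the filter on all 5 arrays. It read 224.5 and 223.4 on the depleted against 337.7, 351.6 and 346.7 on the enriched arrays, a log2 fold change of 0.52 (SE 0.05, adjusted p = 0.000121). On set A, where it met the filter through enriched arrays only, it read 98.7 and 92.2 against 222.8, 269.5 and 284.0, a log2 fold change of 0.91 (adjusted p = 8.06e-05). A dim Ptprg probe set on set B was left out by the filter, with 40.4 and 42.5 against 145.2 and 158.7, and passed without the filter (log2 fold change 0.93, adjusted p = 2.95e-07).

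Ptprk, a close relative of Ptprm that also mediates contact between like cells, rose by a log2 fold change of 0.41 (SE 0.08, adjusted p = 0.00342). Its arrays read 182.9 and 175.7 in the depleted and 291.1, 241.7 and 272.1 in the enriched fraction. One of the dim Ptprk probe sets of set C, left out by the filter, read 54.1 and 54.7 against 72.0, 75.0 and 74.7 and passed without the filter (adjusted p = 0.00546). The other, at 54.0 and 47.2 against 55.2, 48.4 and 53.8, had overlapping groups.

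The rises of Ptprr and Ptprz1 were small. Ptprr, which binds MAP kinases, read 763.1 and 724.3 against 876.7, 927.3 and 922.3, a log2 fold change of 0.26 (SE 0.07, adjusted p = 0.0211). The call was lost after quantile normalization (adjusted p = 0.163), after scaling to the median array (0.115), and with depleted 1 (0.0996), depleted 2 (0.198) or enriched 3 (0.0714) left out. Ptprz1, the receptor for pleiotrophin in the nervous system, read 120.8 and 115.7 against 149.1, 146.6 and 153.8 on set C, a log2 fold change of 0.24 (SE 0.05, adjusted p = 0.00684). That probe set has a name ending in _f_at, the maker's mark for probes shared across a sequence family, so its signal may include other transcripts. The brightest Ptprz1 probe set of set A without such a mark was dim, at 128.5 and 104.1 against 125.9, 76.1 and 130.6, with overlapping groups and no call without the filter (log2 fold change -0.05, adjusted p = 0.828).

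Ptprc was the receptor gene that fell. It encodes CD45, which keeps Src family kinases of lymphocytes ready to signal. At its brightest probe set, the depleted arrays read 1536 and 1399 and the enriched ones 310.6, 515.2 and 385.6. The groups lay apart, and the enriched samples differed among themselves, with enriched sample 1 lowest and sample 2 highest. The log2 fold change was -1.68 (SE 0.16, adjusted p = 5.85e-05), with means of 1468 ± 96.4 (SD, n = 2) and 403.8 ± 104 (SD, n = 3). The second tested Ptprc probe set, at 1347 and 1488 against 322.3, 469.4 and 384.7, gave -1.66 (adjusted p = 1.75e-05) with the same order of the enriched samples. A dim Ptprc probe set left out by the filter read 29.2 and 28.99 against 13.96, 14.57 and 20.99 and passed as a fall without it (log2 fold change -0.16, adjusted p = 0.0155). Ptprcap, the partner of CD45, read 3488 and 3341 against 1046, 1148 and 1051, a log2 fold change of -1.58 (SE 0.08, adjusted p = 1.65e-06).

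The other 11 receptor genes missed the threshold, and their log2 fold changes ran from -0.19 (Ptpro) to 0.21 (Ptprs). Ptprs, a receptor for heparan and chondroitin sulfate proteoglycans, read 776.9 and 845.2 against 860.3, 947.2 and 1044 (adjusted p = 0.121), and passed without enriched sample 1 (0.0233). Its relatives Ptprf and Ptprd had log2 fold changes of 0.09 (95% interval -0.13 to 0.30) and -0.06 (-0.27 to 0.15). A dim Ptprd probe set of set A, left out by the filter, read 27.2 and 27.6 against 43.5, 40.4 and 45.7 and passed as a rise without the filter (log2 fold change 0.18, adjusted p = 0.00796). Ptpro, known from kidney podocytes, read 281.8 and 315.9 against 247.2, 250.0 and 257.7 (adjusted p = 0.0662), and passed as a fall after quantile normalization (-0.29, adjusted p = 0.0129) and scaling to the median array (-0.26, 0.0141). Ptpra and Ptpre, which have short outer parts and act on Src family kinases, had -0.11 (95% interval -0.22 to 0.002) and -0.12 (-0.29 to 0.06). Ptprj, known as CD148 on leukocytes and endothelium, had -0.07 (-0.21 to 0.08) on set C and -0.09 and -0.07 at its tested probe sets of sets A and B. Ptprn and Ptprn2, of secretory vesicles in endocrine cells, had -0.004 and -0.06, and Ptpru and Ptprv had 0.03 and -0.01. These intervals bound the changes on this scale and do not show equal levels.

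**Figure D2:**
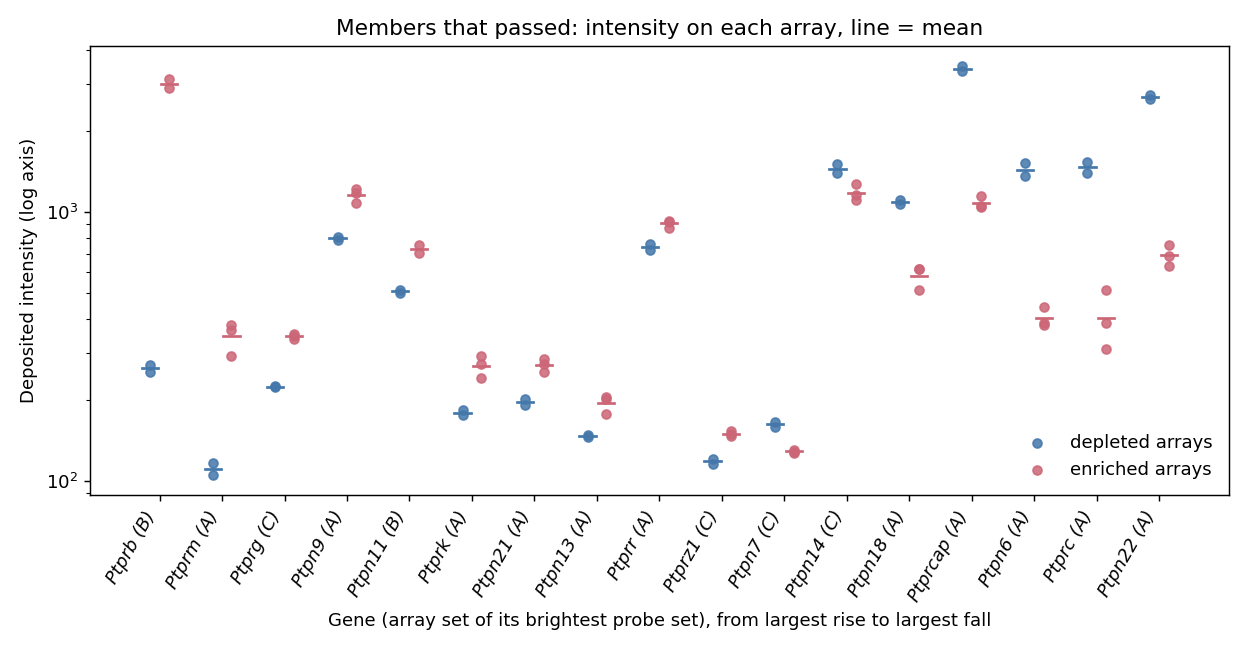
Deposited intensity on each array (points, logarithmic axis) and group mean (lines) for the 17 genes that passed, Ptprcap included, at the brightest probe set, ordered from the largest rise to the largest fall, with the array set in brackets. The genes were picked by their adjusted p, so the gap between depleted and enriched points is no further support. Heights are not to be compared between genes, whose probe sets differ.

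Among the non-receptor types, the lymphocyte phosphatase gene Ptpn22 fell most. Its product acts with the kinase Csk to restrain T cell receptor signalling. The depleted arrays read 2635 and 2719 and the enriched ones 689.3, 754.0 and 631.2. All enriched arrays lay far below both depleted ones, with a log2 fold change of -1.83 (SE 0.09, adjusted p = 1.39e-06) and a depleted mean 3.87 times the enriched mean. Ptpn6, which encodes SHP-1 and docks on inhibitory receptors, read 1358 and 1521 against 381.5, 445.4 and 386.1. Its log2 fold change was -1.63 (SE 0.09, adjusted p = 2.7e-06). The only Ptpn6 probe set has a name ending in _s_at, which marks probes shared between similar transcripts.

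Ptpn18, of the PEST group of phosphatases to which Ptpn22 and Ptpn12 also belong, fell less. It read 1070 and 1112 against 614.5, 614.1 and 512.1, a log2 fold change of -0.82 (SE 0.09, adjusted p = 0.000166). Ptpn12, which acts on proteins of cell adhesion sites, was higher in the enriched fraction but was too dim for the filter. It read 72.1 and 74.3 against 131.9, 159.4 and 147.1, with every enriched array above both depleted ones, and passed without the filter (log2 fold change 0.54, adjusted p = 0.00036). Ptpn12 was not shown to lie above background, so no joint direction is given for the 3 PEST genes. Ptpn7, a phosphatase of MAP kinases in blood cells, read 165.3 and 159.0 against 128.6, 127.1 and 130.6 on set C, a log2 fold change of -0.24 (SE 0.05, adjusted p = 0.00618).

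Both SH2 phosphatase genes were measured, and they went in different directions at their brightest probe sets. Ptpn11 encodes SHP-2, which promotes signals from growth factor receptors. It read 500.3 and 514.7 against 703.2 and 756.2 on set B, a log2 fold change of 0.46 (SE 0.07, adjusted p = 0.000334), whereas Ptpn6 fell. The other Ptpn11 probe sets missed the threshold, at 0.10 on set B (adjusted p = 0.273) and 0.03 on set A (0.842) on the log2 scale, where the groups of 203.2 and 225.5 against 223.7, 198.6 and 237.4 overlapped. The rise of Ptpn11 thus rested on 1 of its 3 tested probe sets.

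Ptpn9, whose product carries a lipid-binding part and sits on secretory vesicles, rose. It read 809.1 and 790.6 against 1221, 1086 and 1181, a log2 fold change of 0.49 (SE 0.08, adjusted p = 0.00133). The phosphatases with a FERM part, which ties them to the membrane and cytoskeleton, moved little or in conflicting ways. Ptpn21 read 201.0 and 191.6 against 284.4, 254.1 and 271.1, a log2 fold change of 0.33 (SE 0.07, adjusted p = 0.00568), and did not pass without depleted sample 2 (0.0768). Ptpn13 read 147.8 and 145.9 against 204.5, 177.3 and 202.4, a log2 fold change of 0.27 (SE 0.07, adjusted p = 0.0195), with 2 enriched arrays alone over the filter. It lost the call after quantile normalization (0.101), scaling to the median array (0.0508) and without depleted sample 1 (0.14) or 2 (0.16). Ptpn3, at 0.06 on the log2 scale, missed the threshold, and Ptpn4 was below the filter.

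Ptpn14, the FERM phosphatase known to bind the growth regulator YAP, gave opposite calls. Its brightest probe set, on set C, fell from 1505 and 1396 to 1110, 1275 and 1155, a log2 fold change of -0.29 (SE 0.07, adjusted p = 0.0222). Its probe set on set B rose from 362.7 and 393.9 to 636.1 and 599.0, a log2 fold change of 0.61 (SE 0.07, adjusted p = 5.72e-05). The probe set that fell has a name ending in _f_at and the one that rose does not, and with such marked probe sets left out Ptpn14 counted as a rise, a setting chosen after seeing the data. The fall also missed the threshold with any of 3 samples left out, depleted 1 (adjusted p = 0.119), depleted 2 (0.0514) and enriched 3 (0.0842). The remaining probe set, on set A, was dim at 107.0 and 98.9 against 117.2, 107.0 and 120.0. No direction is given for Ptpn14 on these grounds.

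**Figure D3:**
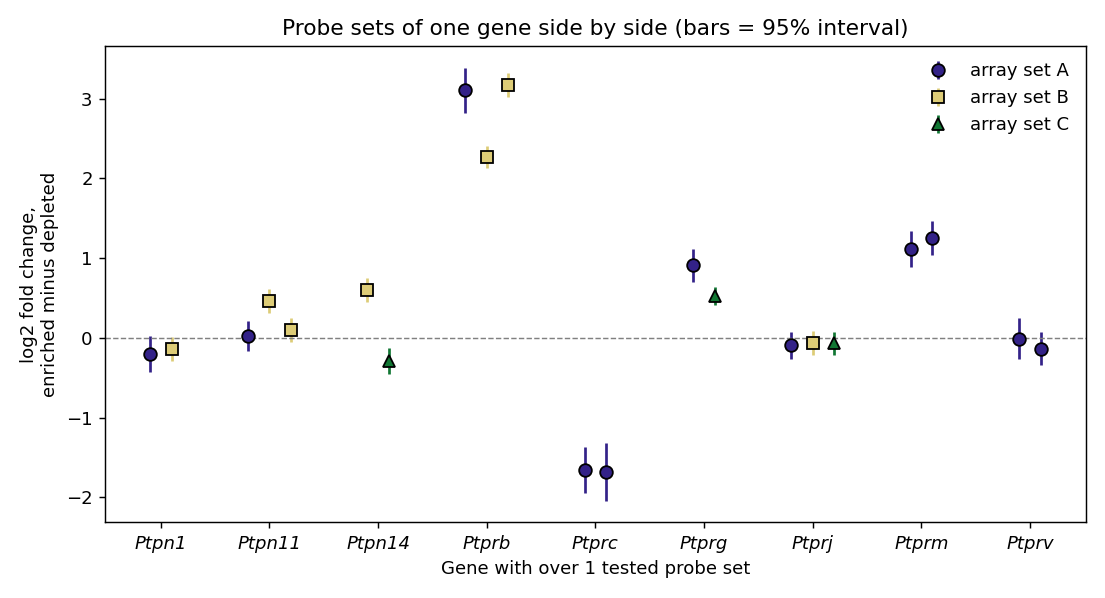
Log2 fold change of the enriched over the depleted arrays with its 95% interval for every tested probe set of the 9 members that had over 1, by array set (colour and shape). Probe sets of Ptprb, Ptprc, Ptprg and Ptprm lie on one side of 0, those of Ptpn14 on opposite sides, and 1 of the 3 of Ptpn11 lies clear of 0.

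Ptpn1 and Ptpn23 did not pass. Ptpn1, the insulin receptor phosphatase, read 1312 and 1273 against 1135 and 1201 on set B (log2 fold change -0.14, adjusted p = 0.135), and its set A probe set gave -0.21 (0.138). Ptpn23, a protein of endosomal sorting, read 521.2 and 467.2 against 617.3, 552.6 and 597.0 (log2 fold change 0.22, adjusted p = 0.0603), and passed without enriched sample 2 (0.0431). The non-receptor genes with no tested probe set were Ptpn2, Ptpn4, Ptpn5, Ptpn12 and Ptpn20. Ptpn4 read 107.7 and 114.8 against 80.0 and 83.1 at its brighter probe set and passed as a fall without the filter (log2 fold change -0.24, adjusted p = 0.00414), as did its dimmer probe set (-0.14, 0.0242). Ptpn2, a phosphatase of JAK kinases, had 4 dim probe sets with log2 fold changes from -0.15 to 0.09 and no call without the filter. Ptpn5, of brain, and Ptpn20, of testis, also had no call, with intensities of 25.1 to 70.1.

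By probe set, 43 of the 78 passed the filter, 15 rose, 8 fell (1 of them Ptprcap) and 20 did not pass. On set A, 9 of 28 tested member probe sets rose and 6 fell, where 23.1% of all tested probe sets rose and 17.9% fell (41.0% in either direction). On set B, 4 of 9 rose and 0 fell (limma, and 0 at an unadjusted p under 0.05), against 19.4% and 17.0% of all (36.5%). On set C, 2 of 6 rose and 2 fell, against 9.50% and 8.73% (18.2%). Over 1 probe set was tested for 9 member genes, and Ptpn14 was the only one of them with calls in opposite directions. Enriched sample 2 had no value at 4 dim member probe sets of set A, none of which was tested.

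Markers of other cell types moved with these genes. The bulk fractions hold several cell types, and fewer cells of a type and less RNA per cell cannot be told apart. How often any probe set lay wholly higher or lower on the enriched arrays was not counted. The marker counts below are therefore descriptions only. Summed over 7 endothelium markers of set A, among them Cdh5, Tie1 and Tek, the depleted arrays gave 1268 and 1310 and the enriched ones 16603 to 18697, 13.9 times higher. All 7 were higher on every enriched array, and none was at 0, although the lowest single value, of Tie1, was 51.69. The depleted means of Tie1 (52.75), Tek (56), Cldn5 (140.8), Cdh5 (147.6) and Kdr (171.8) lay below the 40th percentile of the depleted arrays (176.1 and 179.9). The ratio of the endothelium sums is therefore uncertain in size. The ratio of means on the same arrays was 16.6 for Ptprb, 3.11 for Ptprm and 2.71 for Ptprg. The depleted values of all 3 lay below the 40th percentile of their arrays, and the depleted mean of Ptprb (86.0) below the pseudocount of 88.5, so these ratios are uncertain in size. The 8 fibroblast markers summed to 1706 and 1717 against 12272 to 13973, and all 8 were higher on every enriched array. Among them Col1a1 did not pass (log2 fold change 0.14, limma adjusted p = 0.169). The depleted means of Acta2 (73.51), Pdgfrb (109.2), Sparc (122.8), Col3a1 (143.6) and Dcn (166.4) lay below the 40th percentile of the depleted arrays. The 8 macrophage markers summed to 6857 and 8325 against 16997 to 20643, 2.52 times higher, again with all 8 higher. The FDC list itself was mixed, with 7 of 9 markers higher on every enriched array and 2, Cr2 and Fcer2a, lower. The sums were 6442 and 7013 against 20651 to 23981, 3.27 times higher, and its lowest single value was 12.0. The part of each cell type in the rises was not tested.

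Lymphocyte markers went with the falls. The 7 B cell markers summed to 21628 and 21607 in the depleted samples against 6482 to 8413, 2.88 times lower in the enriched mean, with 6 of 7 lower on every enriched array. The 7 T cell markers summed to 4965 and 4462 against 1645 to 1740 (2.80 times lower, 7 of 7), and the 5 NK cell markers to 3430 and 3868 against 1174 to 1385 (2.90 times lower, 5 of 5). None of these markers was at 0. The enriched means of Cd3d (53.47), Cd3g (44.1), Cd28 (64.2), Klra7 (67.45) and Gzma (161.9) lay below the 40th percentile of the enriched arrays (190.5 to 198.7). Cd8a and Cd4 had log2 fold changes of -0.41 and -0.21. The T and NK cell ratios are thus uncertain in size. As ratios of means on set A, Ptprc was 3.63, Ptprcap 3.16, Ptpn6 3.56, Ptpn22 3.87 and Ptpn18 1.88 times lower. The part of these cell types in the falls was not tested. Neutrophil markers summed to 5691 and 6406 against 2471 to 3105, with 4 of 5 lower. The 3 platelet markers on set A summed to 1179 and 1130 against 1382 to 1626 (2 of 3 higher). Over all array sets 4 platelet markers were tested and all 4 rose, against 19.2% of all genes tested. Among them were Ppbp on set B, from a mean of 124.3 to 1855, and Itga2b on set C, from 220.2 to 702.6. The depleted means of Ppbp and of Gp1bb (158.1, set A) lay below the 40th percentile of their arrays (150.7 and 152.1 on B, 176.1 and 179.9 on A). Both had to be higher in the enriched fraction to be tested, so their calls are no support. Erythroid markers summed to 5401 and 4238 against 5826 to 8059 (2 of 4 higher).

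**Figure D4:**
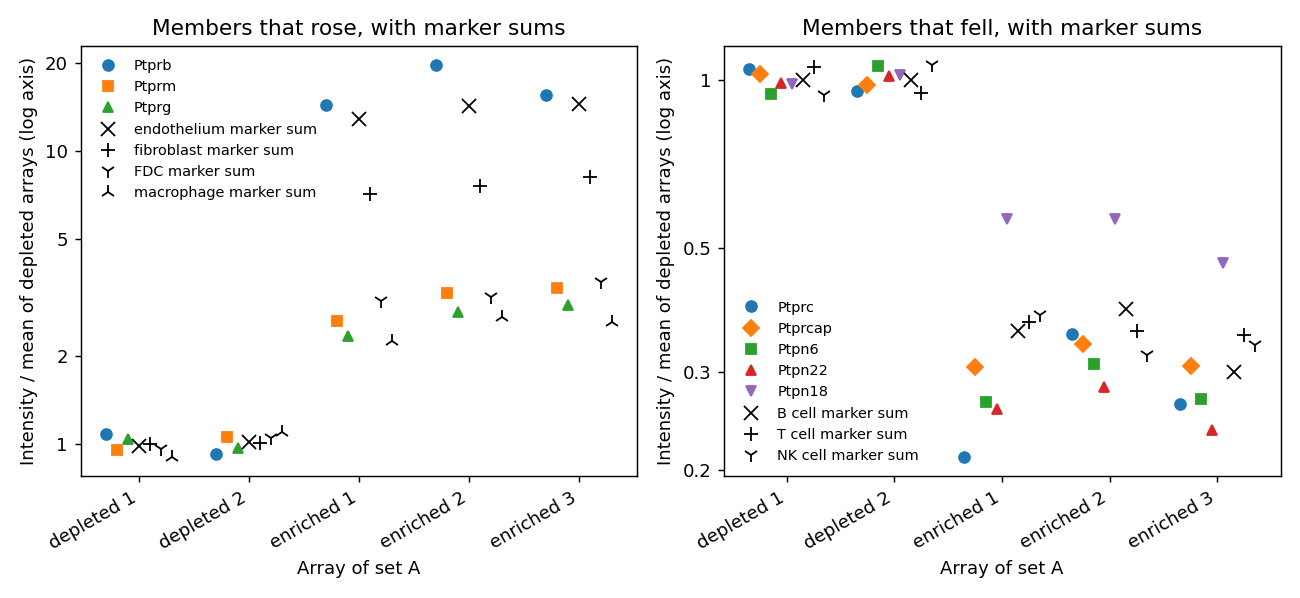
Intensity on each array of set A divided by the mean of the 2 depleted arrays (logarithmic axis), for members that rose (left) and fell (right), each at its brightest tested probe set of set A (coloured points), and for summed marker lists (black marks); the points within an array are shifted sideways for legibility. Ptprb lies near the endothelium sum on the enriched arrays, Ptprm and Ptprg lie near the FDC and macrophage sums, and Ptpn18 lies above the lymphocyte sums.

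The partners of the phosphatases followed both directions. Their fold changes, here and in the paragraphs that follow, are on the scale with the pseudocount and are not plain ratios of means. Of 26 cytoplasmic tyrosine kinases listed, 20 were tested, of which 1 rose, 6 fell and 13 did not pass (median log2 fold change -0.05, against 0.02 over all genes). Over all 12267 genes tested, 19.2% rose and 14.4% fell, and no list was tested against them. The B cell kinase genes Blk and Btk fell 3.62- and 2.50-fold, Tec fell 2.44-fold and Ptk2b 1.88-fold. Syk and Csk, the kinase that Ptpn22 binds, also fell, with log2 fold changes of -0.91 and -0.82. Jak3 rose by 0.28 (adjusted p = 0.0166), a call lost under both other scalings, with the replicate block and without either depleted sample. Lck and Lyn were among those with no tested probe set of a single symbol.

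Genes listed as docking proteins of the SH2 phosphatases, or as related membrane proteins and adaptors, were split. Being listed does not show docking, and Pag1 and Siglec1 are not given here as docking proteins. Of 30 listed, 19 were tested, of which 8 rose, 7 fell and 4 did not pass (median log2 fold change 0.04). Over all genes tested, 19.2% rose and 14.4% fell. The lymphocyte inhibitory receptor genes Btla, Cd22 and Cd72 fell 3.99-, 3.45- and 3.09-fold, and Pag1, a membrane anchor for Csk, fell 3.92-fold. Gab1, an adaptor that binds SHP-2, had means of 79.6 ± 1.70 (SD, n = 2) and 321.3 ± 66.4 (SD, n = 3) and rose 2.42-fold on the scale with the pseudocount. Its depleted mean lay below the 40th percentile of the depleted arrays of set A (176.1 and 179.9), so this fold change is uncertain in size. Pecam1, an endothelial and platelet adhesion molecule, rose 1.95-fold, Siglec1, of macrophages, 1.64-fold and the myeloid receptor gene Sirpa 1.63-fold.

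Receptor kinase and junction genes that receptor-type phosphatases act on were mostly called as rises. Of 23 listed, 21 were tested, of which 15 rose, 1 fell and 5 did not pass, with a median log2 fold change of 1.34. The shares over all genes tested were 19.2% for rises and 14.4% for falls. The list holds endothelial genes that are also in the endothelium list above. The endothelial receptor kinase gene Tie1 rose 16.7-fold, the VE-cadherin gene Cdh5 12.6-fold, the VEGF receptor gene Flt1 5.19-fold and Met, which encodes the receptor for hepatocyte growth factor, 4.26-fold. Tek, the angiopoietin receptor gene and a partner of Ptprb, rose 4.06-fold. The depleted means of Tie1 (52.75), Cdh5 (147.6) and Tek (56) lay below the 40th percentile of their arrays (176.1 and 179.9). So did those of Kdr (171.8), Flt4 (158.3), Pdgfrb (109.2) and Kit (161.8), and that of Met (83.44) on set B (150.7 and 152.1). A gene that met the filter through enriched arrays only had to be higher there. These rises are therefore given as values, not as support. The count of 15 and the median include them and are likewise no support. The Tie1 probe set has a name ending in _f_at. Jup, which encodes plakoglobin, fell 1.20-fold (adjusted p = 0.0308), a call lost with enriched sample 2 or 3 or either depleted sample left out.

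Of 28 genes for outer ligands of receptor types, 15 were tested, of which 5 rose, none fell and 10 did not pass (median log2 fold change 0.12). Among all genes tested, 19.2% rose and 14.4% fell. With limma's unadjusted p under 0.05, 0 fell as well. The galectin gene Lgals3 rose 1.73-fold, the syndecan gene Sdc3 1.66-fold, Lgals1 1.53-fold and the laminin gene Lamc1 1.37-fold. Vcan and Ncan, which encode chondroitin sulfate proteoglycans of the kind that Ptprs binds, had log2 fold changes of 0.12 and 0.06. Of 27 other genes of phosphatase families with the same cysteine-based chemistry, 22 were tested. Of these, 5 rose, 6 fell and 11 did not pass (median log2 fold change -0.04), against the same 19.2% and 14.4% of all genes. Ptpmt1, of mitochondria, rose by 0.58 on the log2 scale, while the cofilin phosphatase gene Ssh2 fell 2.06-fold, the myotubularin-related gene Mtmr4 1.28-fold and Acp1 1.28-fold.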

How the data were processed

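RNA of mouse splenocyte fractions was measured on 14 arrays. For each array set the authors deposited linear intensity values, and their summary and scaling steps are not stated in the labels. The deposited scale was kept. Names came from the platform annotation, with symbols taken by Entrez identifier from the GRCm38.p6 gene table, and those with several symbols were named after none. Each set was fitted alone on log2(intensity + pseudocount), with the 20th percentile of its positive values as pseudocount (88.5 on A, 81.2 on B, 53.1 on C). This scale makes fold changes of dim genes too small. Testing required a value over the 40th percentile of its array on 2 or more arrays, which left 7895, 7786 and 7358 probe sets without the 66 controls per set. Tests were two-sided with limma 3.58.1 (trended prior variance) in R 4.3.3 and adjusted by Benjamini-Hochberg over each set, and the scripts were tested on simulated data. A gene was represented by its brightest probe set, from the array set where that ranked highest in level. The number of arrays limits the precision, and the tables hold no detection calls. Members and gene lists were chosen with earlier results of these data known. All members are named, those that passed with every array value, and of each partner list at most 4 passing genes per direction with the largest changes. Outside this rule, chosen after their values were seen, stand Syk, Csk, Tek, Vcan, Ncan, Ppbp and Itga2b. So do Zap70, Fyn, Txk, Col1a1, Cd4, Cd8a and the genes named only for a mean below the 40th percentile. Marker sums are of the deposited intensities of the brightest probe set per gene on set A. Alternatives were another pseudocount, no filter, other scalings, no trend, a replicate block, other probe sets per gene and leaving out each sample.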

Additional observations from a re-analysis of the deposited data

How the results depend on the processing

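Of the 17 called genes, 10 kept their direction and call under every setting tried (Ptprb, Ptprc, Ptprcap, Ptprg, Ptprk, Ptprm, Ptpn6, Ptpn9, Ptpn18 and Ptpn22), with Ptpn6 not covered where only plain probe sets were used. The Ptprm probe set met the filter through enriched arrays only, so its kept call is no support. Ptpn14 reversed to 0.61 with the first array set and with plain probe sets only. Receptor genes that fell numbered 2 after quantile normalization and after median scaling. Non-receptor genes that fell numbered 3 with plain probe sets only, where 4 member probe sets fell, against 7 of all probe sets (5 and 8 with Ptprcap). Cytoplasmic kinases that rose numbered 0 under both scalings, with plain probe sets and with the block. Junction and receptor kinase genes that fell numbered 0 with the first array set and with the block, and ligand genes that rose numbered 8 with no filter. Leaving out 1 sample at a time gave 2 to 5 rising non-receptor genes (2 without depleted sample 2), 0 to 3 rising kinases, 0 to 1 falling junction genes, 3 to 6 rising and 0 to 1 falling ligand genes, and 2 to 5 rising and 3 to 6 falling other phosphatases. Where 1 depleted array, or on set B 1 array of a group, was left, it was assumed to vary like the other group. The cause of these moves was not tested. Deviations of same-numbered samples from their group means had correlations of 0.03 and 0.06 on set A and -0.31 and -0.15 on set C. The deviations of the 2 depleted arrays mirror each other, so these values cannot decide whether samples were paired. The numbers were not taken to pair samples. With the replicate block on sets A and C, 3 non-receptor genes fell, and Ptpn7 (adjusted p = 0.0602), Ptpn13 (0.0872), Ptpn14 (0.119), Ptprr (0.104) and Ptprz1 (0.09) lost their calls. No paired analysis was possible on set B because its groups share 1 number.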
